A study of Mus musculus with 12 samples.

Results

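Cycling fibroblasts of the mouse hind limb joint were taken from single-cell RNA sequencing (scRNA-seq) of CD45-negative cells as the cells with more than 500 and fewer than 5000 detected genes, at least 3 of 6 cycle markers and at least 4 of 7 fibroblast markers. They were chosen by these measured counts. A gene was detected when the cell held 1 or more of its unique molecular identifiers (UMIs), each of which stands for an RNA molecule caught in that cell. The cycle markers were *Mki67*, *Top2a*, *Cdk1*, *Ccnb1*, *Cenpf* and *Birc5*, and the fibroblast markers were *Dcn*, *Lum*, *Gsn*, *Pdpn*, *Pdgfra*, *Serpinf1* and *Fbln1*. There were 689 such cells among 16430 cells with the fibroblast markers (4.19%), out of 20213 cells within the limits on genes and 21042 deposited cells. Another 119 cells had at least 3 cycle markers and at most 3 fibroblast markers and are called other cycling cells, so that the cycling fibroblasts were 85.3% of 808 cycling cells. The 14557 fibroblast-marker cells with none of the 6 cycle markers are called non-cycling.

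All libraries came from 8- to 10-week-old male C57BL/6 mice, wild-type animals in which serum transfer-induced arthritis (STIA) is started with 100 μl of intravenous serum from arthritic K/BxN mice and then subsides. The 12 libraries carry 4 labels with 3 libraries each. Rest is day 0 without serum, peak is 7 to 9 days after it, resolving is 15 days and resolved is 22 days after it. Each library was made from the pooled joints of 3 animals. Bones with intact joints were digested with collagenase, dispase and DNase, and live cells without the immune surface marker CD45 were sorted. The n below therefore counts pools of animals. P-values measure the spread between pools or, where the library is a block, the spread of the difference within a library.

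Adult connective tissue fibroblasts are mostly out of the cell cycle. A cell that re-enters it first loads the MCM helicase onto DNA and makes nucleotides for replication in S phase, and then builds a spindle, condenses its chromosomes and degrades cyclins through the anaphase-promoting complex in mitosis. Transcription of the early genes is driven by E2F factors, and that of the late genes by the MuvB complex with B-MYB and FOXM1. In joints with arthritis, fibroblasts of the synovial lining and sublining can multiply and add to the thickened tissue.

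The libraries did not group by label. Cell barcodes carry suffixes from 1 to 12, and the library nearest to each one, by the summed counts of its non-cycling fibroblast-marker cells over 10617 genes, lay in the same run of 3 consecutive suffixes for 12 of 12 libraries and had the same label for 0 of 12. What the runs stand for is not stated in the sources used here, and groups are named by their labels only. Whether each label belongs to the library that carries it was not tested, so every value by label rests on the labels as given. The kept cells of a library held between 7739438 and 16750555 UMIs, and the median per deposited cell was 5358 in every library. With the suffix removed, no barcode was found in more than 1 library.

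The markers chose the cells and are given as a description, without a test. Of the cycle markers, *Birc5*, a subunit of the chromosomal passenger complex, was detected in 95.8% of the 689 cells, *Cdk1* in 83.9%, *Top2a* in 82.0%, *Mki67* in 81.0%, *Cenpf* in 65.2% and *Ccnb1* in 61.0%. All 6 were detected in 216 cells, 5 in 182, 4 in 151 and 3 in 140, and 213 fibroblast-marker cells just outside the limit had 2. Of the fibroblast markers, *Dcn* and *Gsn* were found in 99.9% and 99.1% of the cycling fibroblasts. They were also found in 76.5% and 78.2% of the other cycling cells, which may hold up to 3 of these markers. *Pdgfra* (55.9% against 2.52%), *Fbln1* (58.8% against 2.52%), *Pdpn* (81.4% against 14.3%) and *Lum* (96.1% against 26.9%) were found more often in the cycling fibroblasts, a contrast that the rule itself sets. Median depths were 14460 and 6928 UMIs. Between 4 and 7 fibroblast markers were found in 73, 146, 276 and 194 cells, and 58 cycling cells just outside the limit had 3.

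Most of the fibroblast markers were at lower levels than in non-cycling cells. Counts were summed per library over the 7 libraries with at least 10 cycling fibroblasts, which hold 668 of the 689 cells, and levels are counts per 1000000 UMIs of such a sum (CPM, mean ± SD, n = 7). *Dcn*, a collagen-binding proteoglycan, had 3569 ± 1154 CPM in cycling against 12672 ± 3255 CPM in non-cycling fibroblasts. *Gsn*, which severs actin filaments, had 799 ± 268 against 7549 ± 4077 CPM. *Pdpn*, which marks the synovial lining, had 219 ± 107 against 196 ± 74.7 CPM. The ranges of the 7 libraries overlapped between cycling and non-cycling sums for *Pdpn*, but not for *Dcn* or *Gsn*. Of the 10617 genes tested, which leave out those of the rule, 3.81% lay below without overlap. Both groups were chosen by detection of these markers and differed in depth, so their levels are a description too.

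The share of cycling cells among fibroblast-marker cells followed the runs of barcode suffixes rather than the labels. In order of suffix, it was 1.46% (21 cells) in rest replicate 1, 0.657% (7) in peak replicate 1 and 0.940% (9) in resolving replicate 1. It was 13.8% (151 cells) in resolved replicate 1, 8.06% (122) in rest replicate 2 and 12.9% (179) in peak replicate 2. It was 3.18% (47 cells) in resolving replicate 2, 5.07% (120) in resolved replicate 2 and 2.71% (28) in rest replicate 3. The last run, of peak, resolving and resolved replicate 3, had 0.104% (2 cells), 0.0906% (1) and 0.187% (2). The 3 libraries suffixed 4 to 6 thus held 65.6% of all cycling fibroblasts, and without thinning no library of another run reached their lowest share. The 95% Wilson interval was 11.9% to 16.0% in resolved replicate 1 and 0.0160% to 0.511% in resolving replicate 3, and it covers counting error only. In rest replicate 1 and peak replicate 1, 81.0% and 85.7% of the cycling cells had at least 2 chondrocyte markers, so they are fibroblasts by the rule only. Without cells with 2 markers of another type, erythroid markers aside, the share was 0.343% and 0% there. In the libraries suffixed 4 to 6 it was then 11.1%, 7.98% and 11.9%.

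The other cells of a library moved with its fibroblasts. In the libraries suffixed 4 to 6, between 8.20% and 10.5% of the cells with at most 3 fibroblast markers were cycling. In those suffixed 10 to 12 it was 0.196% to 0.311%. This comparison of runs is a description, since the runs were seen in these data. With each cell thinned to 2000 UMIs, so that depth was equal, 139 cells passed the rule. The share then lay between 0% and 0.336% in suffixes 1 to 3, 1.83% and 2.72% in suffixes 4 to 6, 0.512% and 2.34% in suffixes 7 to 9, and 0% and 0.124% in suffixes 10 to 12. At equal depth resolved replicate 2, suffixed 8, with 2.34% thus lay above rest replicate 2 (1.83%) and peak replicate 2 (2.11%).

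**Figure D1:**
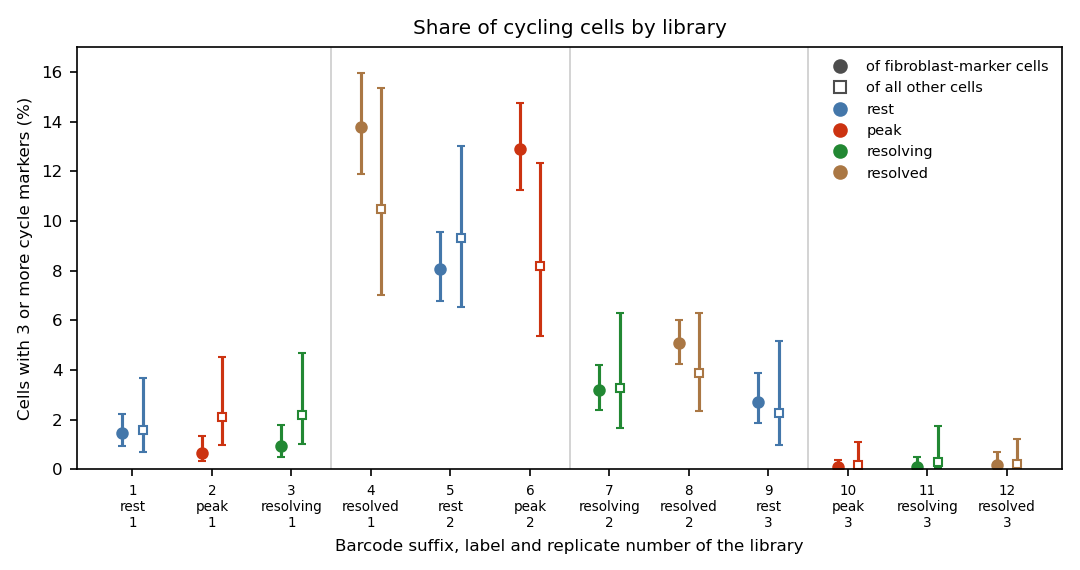
Share of cells with 3 or more cycle markers in each of the 12 libraries, in order of barcode suffix, among fibroblast-marker cells (filled) and among all other cells (open), with 95% Wilson intervals. Vertical lines part the runs of 3 suffixes, and the libraries suffixed 4 to 6 lie between 8.06% and 13.8% while those suffixed 10 to 12 lie at or under 0.187% of fibroblast-marker cells.

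By label, no difference in the share exceeded the spread between libraries. It was 4.08% ± 3.51 in the libraries labelled rest, 4.55% ± 7.23 in those labelled peak, 1.40% ± 1.60 in those labelled resolving and 6.35% ± 6.89 in those labelled resolved (SD, n = 3 each). The exact two-sided permutation p against rest was 1, 0.3 and 0.7 for differences of 0.470, -2.68 and 2.27 percentage points, and 0.9 or 1 after Benjamini-Hochberg adjustment over the 3 comparisons. With 3 libraries against 3 the smallest p this test allows is 0.1. Without peak replicate 2 the difference of peak from rest was -3.70 points, and without resolved replicate 1 that of resolved was -1.45 points.

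Cycling fibroblasts held more UMIs than non-cycling ones. Their median was 14460 UMIs against 5627, and it was higher in 12 of 12 libraries. A deep cell reaches 3 detected cycle markers more easily, so the gene comparisons below were repeated with 500 non-cycling cells drawn to match in UMIs, with a median of 12198. This also made the non-cycling sums smaller, and the effect of depth and that of fewer cells were not told apart. The doublet caller Scrublet marked 57 cells (0.282%), which is too few for a working call, so the highest 6% of its scores in each library were examined instead. They held 6.97% of cycling and 5.88% of non-cycling fibroblasts.

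Markers of other joint cells were common in both populations. At least 2 markers of some other cell type, erythroid markers aside, were detected in 54.3% of cycling and 46.3% of non-cycling fibroblasts. At least 2 markers of tenocytes, the cells of tendon, were detected in 36.0% of cycling and 29.3% of non-cycling fibroblasts, at least 2 of chondrocytes in 20.2% and 7.49%, and at least 2 of osteoblasts in 9.87% and 15.3%. In rest replicate 1 and peak replicate 1 the share with chondrocyte markers was 81.0% and 85.7% of the cycling cells, and that with osteoblast markers 76.2% and 71.4%. *Col2a1*, the main collagen of cartilage, had 19049 CPM in the cycling cells of rest replicate 1, against 5.02 to 997 CPM in those of the other 6 libraries compared. At least 2 erythroid markers were found in 61.0% and 24.8%, although the summed erythroid level had a median of 499 CPM in cycling and 714 CPM in non-cycling sums. Endothelial markers (3.77% and 1.30%) and immune markers (1.31% and 0.247%) were rare, and the part of these cells in the results was not tested beyond leaving them out. Counts of changed genes are therefore given with and without rest replicate 1.

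Along the number of detected cycle markers, the genes of replication and of mitosis behaved differently. The lists of replication and nucleotide synthesis genes, which hold no marker of the rule, took up 0.0659% ± 0.0095 of the UMIs (SD, 7 libraries) in cells with 0 cycle markers, 0.351% ± 0.0559 with 5 (6 libraries) and 0.273% ± 0.0701 with 6 (7 libraries). The mitosis list grew without a turn, from 0.0167% ± 0.00137 with 0 markers to 0.341% ± 0.0516 with 5 and 0.548% ± 0.13 with 6. Chromatin condensation genes went from 0.128% ± 0.0116 to 0.716% ± 0.105. Cells with 2 markers, just outside the rule, had 0.176% ± 0.0296 for replication and 0.125% ± 0.0434 for mitosis. These shares are a description, since the number of markers grows with depth and with the cycle itself.

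**Figure D2:**
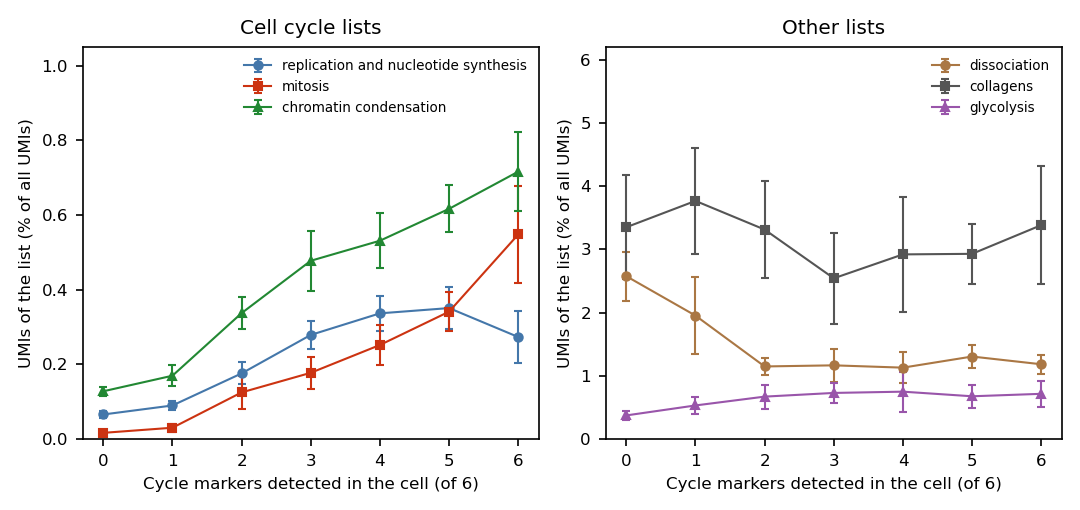
Share of all UMIs taken by lists of genes in fibroblast-marker cells with 0 to 6 detected cycle markers, as the mean and SD of 5 to 7 libraries. These held at least 10 cycling fibroblasts in all and at least 5 cells with the number of markers shown. The mitosis list reaches 0.548% at 6 markers, where replication and nucleotide synthesis are at 0.273%, and the dissociation list goes from 2.58% at 0 markers to 1.18% at 6.

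Genes of DNA replication were high in the cycling fibroblasts of every library. For all 30 tested genes of the replication list the 7 cycling sums lay above the 7 non-cycling sums, as they did for 9.45% of all 10617 genes tested, with a median log2 fold change of 2.82 against -0.02 over all genes. These lists share the cycle that chose the cells, so no test is given. *Mcm5*, a subunit of the MCM helicase, had 58.7, 61.4 and 102 CPM (lowest, median and highest library) against 1.21, 2.80 and 5.34 CPM in non-cycling fibroblasts. *Pcna*, the sliding clamp of DNA polymerases, had 131, 147 and 265 CPM against 28.3, 37.6 and 50.7 CPM, so that non-cycling cells kept a measurable level. *Rrm2*, a ribonucleotide reductase subunit that makes deoxynucleotides, had 190, 204 and 430 CPM against 7.88, 10.9 and 16.3 CPM. The nucleotide synthesis list lay above in 8 of 10 genes, with log2 fold changes from 0.64 for *Paics* of purine synthesis to 5.60 for the thymidine kinase gene *Tk1*.

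Among the cell cycle lists, that of mitosis had the largest median difference. Non-cycling cells had to lack all 6 cycle markers, so the size of the differences and the order of the lists depend on the rule. In 35 of 36 tested genes the cycling sums lay above the non-cycling sums, with a median log2 fold change of 6.17. *Cdc20*, which activates the anaphase-promoting complex, had 128, 168 and 251 CPM against 1.35, 3.4 and 5.21 CPM (lowest, median and highest library). *Plk1*, a mitotic kinase, had 30.6, 53.9 and 100 CPM against 0.332, 0.396 and 1.12 CPM. The largest value of the list was that of *Hmmr*, a spindle protein, with a log2 fold change of 8.01 ± 0.23 (SE), and *Ube2c*, which hands ubiquitin to cyclins, had 365 ± 80.9 against 2.37 ± 1.24 CPM. The exception was *Pttg1*, which encodes securin, the inhibitor of separase. Its log2 fold change was -0.42 ± 0.11, from 37.9 ± 6.39 CPM in cycling and 50.5 ± 11.5 CPM in non-cycling sums. Whether reads that match *Pttg1* and a near-identical copy alike were lost in counting was not tested.

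Cyclins divided by phase. *Ccna2*, the cyclin of S and G2 phase, had 114, 159 and 232 CPM against 0.169, 0.792 and 1.04 CPM. *Ccnb2*, a mitotic cyclin, had 128, 201 and 238 CPM against 0.329, 3.32 and 10.1 CPM. The D cyclins, which act in G1 phase, did not share this: *Ccnd1* had 32.7 ± 28.6 against 19.2 ± 10.4 CPM, with overlapping libraries. *Ccnd2* had 71.9 ± 17.8 against 152 ± 38.4 CPM and was lower in 7 of 7 libraries without overlap. Over the cyclin and kinase list, 12 of 16 genes lay above and 1, *Ccnd2*, below, as 3.81% of all genes did.

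Chromatin genes lay above in 15 of 15. *Hmgb2*, a chromatin protein that bends DNA, had 506, 640 and 1115 CPM against 37.9, 63.2 and 69.8 CPM, and the histone variant gene *H2afz* had 2397 ± 248 against 402 ± 47.6 CPM. Of 13 tested E2F and MuvB factors, 5 lay above. *Mybl2*, which encodes B-MYB, had a log2 fold change of 5.59 ± 0.26 and *Foxm1* one of 4.63 ± 0.26. *E2f1* had only 0.63 ± 0.21, with overlapping libraries, and *Rbl2*, the p130 repressor of resting cells, -0.55 ± 0.19. The plot of levels in 7 libraries shows these genes beside those of fibroblast function.

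**Figure D3:**
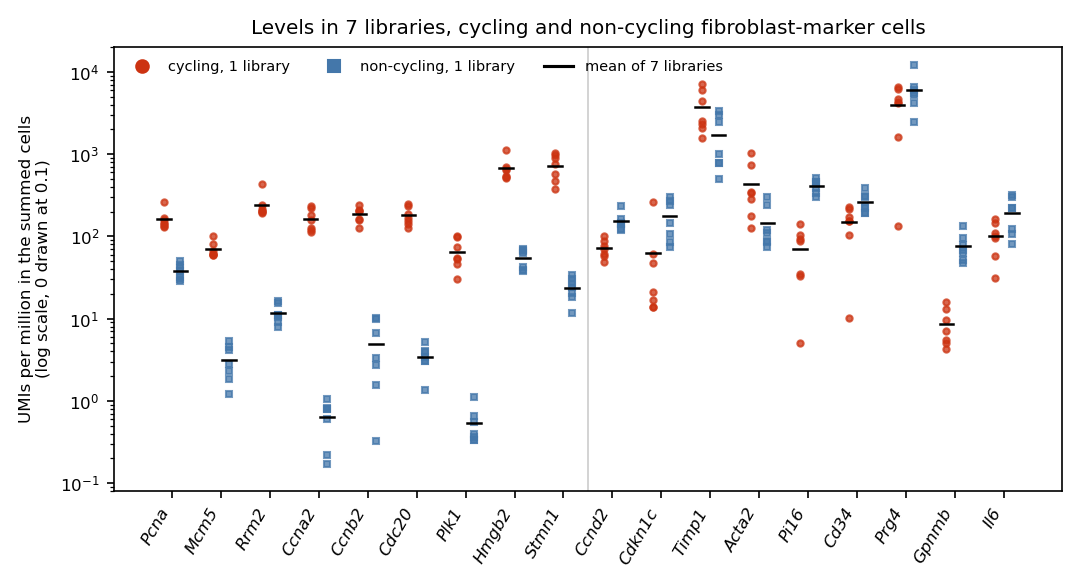
CPM in the summed cycling (circles) and non-cycling (squares) fibroblasts of 7 libraries, on a log scale, with means as bars. Genes left of the line are separated in every library, from *Pcna* with a mean of 163 against 37.9 to *Ccna2* with 164 against 0.637, while *Ccnd2* and *Gpnmb* lie lower in cycling cells and *Prg4* overlaps.

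The promoters of 2 late and 2 early genes are shown as examples. The lists of mitosis and of replication, which hold *Cdc20* and *Mcm5*, differed in their sequence, while *Ccnb2* is in the cyclin list and *Rrm2* in that of nucleotide synthesis. E2F sites and CHR elements are the textbook sites of E2F factors and of MuvB, and CCAAT boxes bind NF-Y. In the RefSeq promoter sequences of GRCm38.p6, from 250 bases before to 50 after the start, a CHR element (TTTGAA or TTCGAA) was found on either strand in 77.4% of the matched mitosis genes (24 of 31), in 18.5% of replication genes (5 of 27) and in 21.7% of all 27025 genes. An E2F site (TTTCCCGC, TTTCGCGC, TTTGCCGC or TTTGGCGC) was found in 51.9% of replication genes (14 of 27), in 0 of 31 mitosis genes and in 2.6% of all. The nucleotide synthesis list held neither, with 0 of 9 genes for each, and the cyclin and kinase list held CHR in 4 and E2F in 2 of 11. CCAAT was found in 77.4% of the matched mitosis genes, in 70.4% of the matched replication genes and in 41.1% of all genes. A match describes letters, not binding. The mitosis genes *Spc24*, *Aurkb*, *Incenp*, *Tpx2* and *Kif20a* and the replication genes *Mcm4*, *Gins1*, *Gins2* and *Pole* had no entry. Capitals below mark CHR, CCAAT and E2F matches on either strand, each sequence runs 5′ to 3′ along its gene from 170 bases before to 30 after the start, and overlapping matches are merged.
Ccnb2 promoter, chr9:70421525-70421724, minus strand: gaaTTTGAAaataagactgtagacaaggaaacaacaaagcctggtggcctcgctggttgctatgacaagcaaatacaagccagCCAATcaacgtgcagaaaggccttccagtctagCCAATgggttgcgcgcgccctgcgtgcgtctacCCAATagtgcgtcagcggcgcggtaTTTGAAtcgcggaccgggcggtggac
Cdc20 promoter, chr4:118437314-118437513, minus strand: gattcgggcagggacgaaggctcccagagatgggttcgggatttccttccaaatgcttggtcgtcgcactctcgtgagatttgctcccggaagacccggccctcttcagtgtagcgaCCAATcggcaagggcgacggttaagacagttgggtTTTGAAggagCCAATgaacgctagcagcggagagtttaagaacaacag
Mcm5 promoter, chr8:75109339-75109538, plus strand: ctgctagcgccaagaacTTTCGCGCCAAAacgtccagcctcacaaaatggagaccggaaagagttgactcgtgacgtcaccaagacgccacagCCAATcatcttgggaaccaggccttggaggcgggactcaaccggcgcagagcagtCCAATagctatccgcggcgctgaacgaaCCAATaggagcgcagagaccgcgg
Rrm2 promoter, chr12:24708084-24708283, plus strand: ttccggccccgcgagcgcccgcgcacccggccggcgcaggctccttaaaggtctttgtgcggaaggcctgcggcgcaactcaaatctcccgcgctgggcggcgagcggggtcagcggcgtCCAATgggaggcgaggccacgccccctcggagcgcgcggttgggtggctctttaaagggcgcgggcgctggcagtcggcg

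The capitals show a CHR match in *Ccnb2* and *Cdc20* close to the start, with the nearest first bases at 5 and -18, and 3 and 2 CCAAT boxes. *Mcm5* holds a pair of overlapping E2F matches at -153 and -149 and 3 CCAAT boxes. *Rrm2* holds a CCAAT box at -50 and no match to the other letters in this window. Over the mitosis list, 29 of 34 CHR matches lay between 100 bases before and 50 after the start.

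Outside the cell cycle lists, a large part of the transcriptome differed between cycling and non-cycling fibroblasts of the same library. Of 10617 genes tested, 1525 were higher (14.4%) and 1737 lower (16.4%) (either 30.7%). A call needed an adjusted p of less than 0.05 and a difference of more than 0.5 on the log2 scale, by the quasi-likelihood test of edgeR, with Benjamini-Hochberg adjustment and the library as a block. Without the cell cycle lists these were 1415 (13.5%) and 1735 (16.5%) of 10497 (either 30%). Against the cells matched in UMIs, 816 (10.9%) were higher and 825 (11%) lower of 7474 (either 22%). Without rest replicate 1 the counts were 1589 (15%) and 1805 (17%) of 10618 (either 32%), and in the 3 libraries suffixed 4 to 6 alone 1513 (14.2%) and 1644 (15.4%) of 10670 (either 29.6%). Adjusted p-values below are from this test.

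Brakes of the cell cycle did not move as a group. Of 15 inhibitors and arrest genes, 3 were higher and 6 lower, and against matched cells 2 higher and 4 lower of 14. *Cdkn1c* on chromosome 7 (143458339 to 143461050, minus strand, GRCm38), which encodes the Cdk inhibitor p57, had 13.8, 21.3 and 262 CPM in cycling against 74.0, 146 and 303 CPM in non-cycling sums (lowest, median and highest library). It was lower in 7 of 7 libraries, with a log2 fold change of -2.17 ± 0.32 and adjusted p = 0.000194, and -2.02 against matched cells. The highest value was that of rest replicate 1. *Cdkn2c* on chromosome 4 (109660876 to 109667189, minus strand), which encodes the *Cdk4* and *Cdk6* inhibitor p18, had 47.9, 153 and 221 CPM against 18.8, 30.6 and 42.8 CPM and was higher in 7 of 7 libraries without overlap (1.91 ± 0.12, adjusted p = 8.33e-08, matched 2.17). *Btg2*, an antiproliferative gene that is also an immediate early gene, was lower at -1.08 ± 0.17. *Cdkn1a* (p21) at -0.42 ± 0.13 and *Cdkn1b* (p27) at -0.44 ± 0.15 missed the limit of 0.5 on the log2 scale. Without rest replicate 1, *Cdkn1a* passed it at -0.56.

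Most genes that mark sublining fibroblasts were lower. Of 7 sublining markers, 5 were lower and none higher, and 2 of the 6 tested against matched cells were lower. *Pi16*, a marker of adventitial fibroblasts, had 5.09, 88.1 and 141 CPM against 300.3, 435 and 507 CPM, with no overlap, a log2 fold change of -2.66 ± 0.33 and adjusted p = 5.27e-05 (matched -1.56). *Col14a1*, a fibril-associated collagen, was lower at -1.81 ± 0.16 (matched -1.48). *Cd34*, a progenitor and vessel marker, had 148 ± 73.6 against 262 ± 72.3 CPM and was lower at -0.91 ± 0.33 (adjusted p = 0.0418), but at -0.12 against matched cells it did not pass. *Thy1*, which marks perivascular sublining cells, had 170 ± 89.1 against 159 ± 23.5 CPM and did not pass (-0.10 ± 0.28, adjusted p = 0.80).

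Of 4 tested lining genes, 2 were lower and none higher. *Prg4*, which encodes the lubricant lubricin of the lining, had 135, 4292 and 6458 CPM against 2455, 5501 and 12142 CPM and did not pass (-0.74 ± 0.56, adjusted p = 0.314, matched -0.08). Its lowest cycling value was that of rest replicate 1. *Clic5* (-1.72 ± 0.36) and *Tspan15* (-0.94 ± 0.34) were lower, *Tspan15* also against matched cells, and *Itga6*, an integrin, did not pass.

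Among marker groups of joint fibroblast subsets, most members that passed were lower. *Ccl11*, an eosinophil chemokine, had 0, 4.79 and 6.57 CPM against 30.0, 69.1 and 130 CPM (-3.99 ± 0.21, adjusted p = 2.27e-08). *Serpina3c*, a serpin, had 0.752 ± 1.29 against 17.2 ± 6.23 CPM (-3.87 ± 0.34). *Gpnmb*, a membrane glycoprotein, had 4.25, 6.99 and 15.8 CPM against 46.8, 67.8 and 133 CPM without overlap (-3.20 ± 0.17, matched -1.78). With it in its group were *Sfrp4*, a Wnt antagonist, at -2.78 ± 0.21, which did not pass against matched cells (-0.92), and *Fbln7* at -1.87 ± 0.27, which did (-1.14). *Saa3*, an acute phase gene, was lower at -1.93 ± 0.23 and -1.91 matched. The members that were higher were *Il1rl1* (0.90 ± 0.14), the receptor of interleukin-33, and *Ccl9* (0.83 ± 0.23), and neither passed against matched cells.

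**Figure D4:**
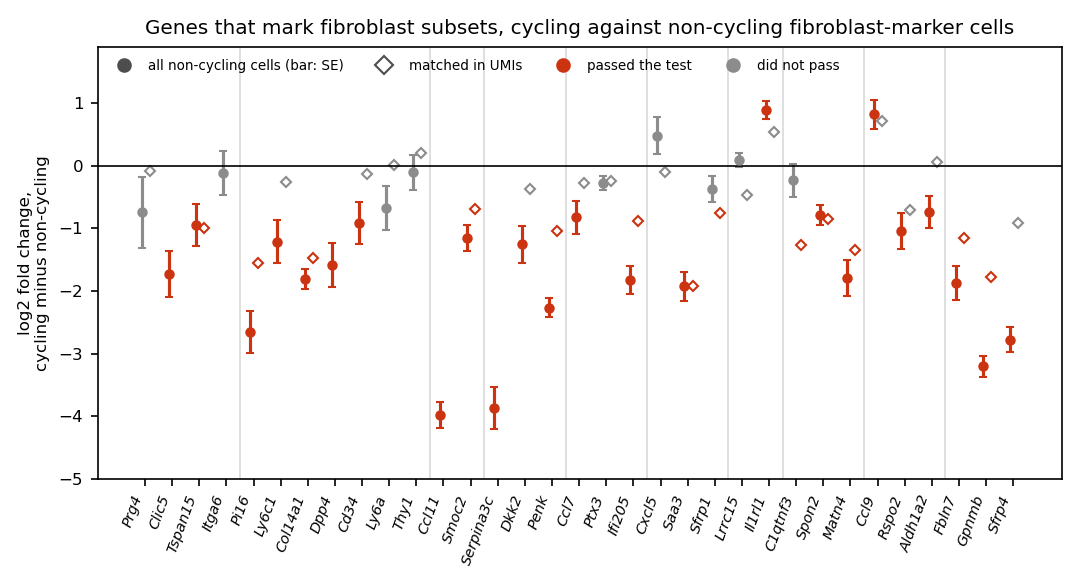
Log2 fold change of genes that mark fibroblast subsets, cycling minus non-cycling, in 7 libraries against all non-cycling cells (circles, bars SE) and against cells matched in UMIs (diamonds), red where the test was passed. Most points lie below 0, from *Ccl11* at -3.99 to *Il1rl1* at 0.90, and diamonds of *Cd34*, *Ly6c1* and *Dkk2* lie nearer to 0 and are grey.

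Inflammatory ligands were mixed, and fewer were called against matched cells. Of 17 tested, 2 were higher and 6 lower, but 0 and 2 of 14 against matched cells. *Il6*, the cytokine interleukin-6, had 31.5, 101 and 163 CPM against 80.2, 220 and 317 CPM (-0.99 ± 0.19, adjusted p = 0.00145) and -0.63 without a call against matched cells. *Cxcl1*, a neutrophil chemokine, had 471, 1924 and 3565 CPM against 1264, 1514 and 2911 CPM and did not pass (-0.46 ± 0.20). *Ccl2*, a monocyte chemokine, had 1318 ± 851 against 1245 ± 563 CPM (-0.29 ± 0.36, matched 0.15). *Ccl20*, a chemokine, was at 1.0 ± 0.32 with a call, at 0.33 without one against matched cells, and lower at -2.58 ± 0.46 (adjusted p = 0.000297) without cells that had 2 markers of another type.

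More collagen genes were called lower against matched cells. Of 19 collagen genes, 1 was higher and 2 lower, with a median log2 fold change of -0.30, while against matched cells 9 were lower and none higher with a median of -0.46, and without rest replicate 1 there were 5 lower. *Col1a1*, the main collagen of connective tissue, had 6425, 9841 and 12485 CPM against 7824, 12979 and 17038 CPM (-0.45 ± 0.16) and was lower at -0.79 against matched cells. *Mmp2*, a gelatinase, had 392, 556 and 803 CPM against 956, 1063 and 2091 CPM without overlap (-1.35 ± 0.15, adjusted p = 1.48e-05, matched -1.22). *Postn*, a matrix protein of activated fibroblasts, was lower at -0.58 ± 0.14 and -0.93 matched.

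In the myofibroblast and matrix list of 18 genes, 4 were higher and 6 lower, and against matched cells 1, *Acta2*, was higher and 6 were lower. *Acta2*, the smooth muscle actin of myofibroblasts, had 125, 338 and 1018 CPM against 73.7, 110 and 302 CPM and was higher in 7 of 7 libraries (1.36 ± 0.37, adjusted p = 0.0103, matched 0.79). At least 2 markers of pericytes or smooth muscle were found in 2.90% of cycling and 1.11% of non-cycling fibroblasts, with summed levels of 12.7 to 335 and 38.2 to 108 CPM, and the part of such cells in this result was not tested. *Timp1*, an inhibitor of matrix proteases, had 1546, 2489 and 7012 CPM against 493, 1001 and 3327 CPM and was higher in 7 of 7 (1.2 ± 0.12), but 0.24 against matched cells was under the limit. Of 15 growth factor and cytokine receptors, 9 were lower and none higher, and 3 of 13 were lower against matched cells, among them *Fgfr2* (-1.05 ± 0.29, matched -0.69).

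Genes of growth and of the cytoskeleton were higher. Of 10 tubulin and microtubule genes, 9 were higher, and 7 against matched cells. This list took up 0.238% of the UMIs in cells with 0 cycle markers and 0.892% with 6, so its calls depend on the rule too. *Stmn1*, which destabilises microtubules, had 375, 750 and 1036 CPM against 11.6, 24.4 and 33.5 CPM without overlap (4.82 ± 0.31, matched 4.38), given as a description. *Tubb5*, a beta-tubulin, had 1898 ± 192 against 504 ± 85.1 CPM (1.86 ± 0.11). Of 14 growth and nucleolar genes, 9 were higher and 1 lower, and 5 and 1 of 13 against matched cells. *Npm1*, a nucleolar chaperone, was higher at 0.75 ± 0.09 (matched 0.53) and *Dkc1*, which modifies ribosomal RNA, at 1.09 ± 0.10 (matched 1.01).

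The gene that was lower was *Myc*, the growth transcription factor. It had 55.9, 76.0 and 78.9 CPM against 102, 166 and 219 CPM, with no overlap (-1.18 ± 0.09, adjusted p = 1.07e-06, matched -0.55). Glycolysis genes were higher in 9 of 17 and lower in 1, but against matched cells 0 were higher and 1 lower. *Gapdh* went from 0.80 ± 0.10 to 0.19 and *Pgk1* from 1.21 ± 0.17 to 0.31. *Hk2*, the hexokinase that the study is about, had 46.8, 121 and 155 CPM against 108, 168 and 223 CPM and was lower (-0.70 ± 0.14, adjusted p = 0.00136), without a call at -0.29 against matched cells.

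Dissociation and immediate early genes, which respond to the digestion of tissue, were lower. Of 20, 18 were lower and none higher, and 15 of 20 against matched cells, with medians of -1.05 and -0.73. *Socs3*, a feedback inhibitor of cytokine signals, had 67.6, 269 and 744 CPM against 424, 658 and 1030 CPM (-1.45 ± 0.21, matched -0.66). *Hspa1a*, a heat shock chaperone, was lower at -1.02 ± 0.15 and did not reach the limit at -0.45 against matched cells. *Ier3*, a stress response gene, was at 0.11 ± 0.16 without a call.

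Among genes outside these lists, the highest were mostly further mitotic genes, given as a description, from *Pbk*, a mitotic kinase, at 8.08 ± 0.27 to *Cep55*, which acts in abscission, at 7.24 ± 0.34, with *Dlgap5*, *Kif2c*, *Kif15*, *Ska1*, *Esco2* and the linker histone *Hist1h1b* between them. Their non-cycling means lay between 0.106 and 0.649 CPM. Lowest were *Coch* (-5.12 ± 0.24), *Angptl7* (-4.92 ± 0.32), *Inmt* (-4.82 ± 0.31), *Amy1* (-3.98 ± 0.38) and *Myoc* (-3.94 ± 0.46). *Angptl7*, an angiopoietin-like secreted protein, had 4.36, 8.57 and 59.6 CPM against 251, 389 and 1495 CPM, and -3.18 against matched cells. *Apod*, an apolipoprotein of connective tissue cells, had 85.4 ± 39.7 against 1035 ± 325 CPM (-3.66 ± 0.24, matched -1.74).

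Markers of other cell types were tested in the same fit. Of 6 tenocyte genes, 4 were lower and none higher, led by *Tnmd*, a tendon membrane protein, at -2.28 ± 0.34 with 141 ± 146 against 478 ± 345 CPM (matched -1.64). Of 5 osteoblast genes, 2 were lower, among them *Bglap*, which encodes osteocalcin, at -3.52 ± 0.93, with 480 ± 1106 against 649 ± 570 CPM. Its cycling level in rest replicate 1 was 2977 CPM, against 1.93 to 303 CPM in the other 6 libraries. None of 5 chondrocyte genes and 6 endothelial genes passed, at medians of -0.37 and 0.83. Without rest replicate 1, 3 of 6 endothelial genes were higher at a median of 0.90, among them *Emcn* (1.44) and *Egfl7* (0.86), and 3 of 4 immune genes were higher, among them the myeloid gene *Lyz2* (2.48), while 2 of 2 tested erythroid genes were lower. Against cells matched in UMIs, 0 endothelial genes were higher and 1 lower of 3 (median -0.51), and the 2 erythroid genes were not called (median 0.33). Of 4 pericyte or smooth muscle genes, *Mcam*, a cell adhesion molecule, was higher at 1.03 ± 0.38 (adjusted p = 0.0449). No muscle or Schwann cell gene had enough counts to be tested.

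The cycling fibroblasts were next set beside the other cycling cells of the same libraries. At least 10 of both were present in rest replicate 2, peak replicate 2, resolved replicate 1 and resolved replicate 2. The other cycling cells were a mixture, in which 53.8% had at least 2 erythroid, 32.8% at least 2 endothelial and 14.3% at least 2 pericyte or smooth muscle markers. In cycling fibroblasts 734 genes were higher (10.7%) and 655 lower (9.56%), out of 6851 (either 20.3%). Without rest replicate 2 there were 482 and 427, and without resolved replicate 1 there were 433 lower. As the rule picked fibroblast markers, only the cell cycle, tubulin and growth lists are read here. Since the other cycling cells were shallower, the comparison was repeated with 86 cycling fibroblasts matched to the 86 others in UMIs (medians of 7142 and 6731), where 329 genes were higher (12.7%) and 285 lower (11%) of 2598 (either 23.6%). With at most 1 fibroblast marker in the other cells, 310 genes were higher and 161 lower of 6842. Of the single genes recomputed there, 9 kept direction and side of the threshold, 8 lost a call and 2 changed sign.

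Many replication genes were lower in cycling fibroblasts than in other cycling cells. Of 29 tested, 14 were lower and none higher, with a median log2 fold change of -0.87 against 0.04 over all genes, and 11 of 19 were lower against matched cells. *Mcm5* had 65.9, 61.4, 60.4 and 58.7 CPM in rest replicate 2, peak replicate 2, resolved replicate 1 and resolved replicate 2, against 160, 162, 128 and 137 CPM in the other cycling cells of these libraries. Its log2 fold change was -1.15 ± 0.20 (adjusted p = 0.000966, matched -0.97). *Pcna* had 159, 134, 131 and 165 CPM against 404, 301, 317 and 355 CPM in the same order (-1.12 ± 0.18, matched -1.05). *Rrm2* had 204, 204, 214 and 190 CPM against 529, 390, 495 and 469 CPM (-1.10 ± 0.17, matched -1.06). For these 3 genes no library overlapped, as for 838 of all genes tested (12.2%).

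Chromatin genes were lower in 10 of 15 and none higher, and in 5 of 9 against matched cells. *Hmgb2* had 532, 534, 506 and 640 CPM against 1843, 1938, 1813 and 1499.8 CPM (-1.58, matched -1.72). The mitosis list was lower in 11 of 35 and higher in none, and in 11 of 29 against matched cells. *Cdc20* (-0.36 ± 0.25, adjusted p = 0.343), *Plk1* (-0.40 ± 0.26, adjusted p = 0.325) and *Ccnb2* (-0.50 ± 0.20, adjusted p = 0.102) did not pass, and their libraries overlapped. Cyclin A, *Ccna2*, was lower at -0.94 ± 0.19. Of 10 nucleotide synthesis genes 2 were lower, of 15 cyclins and kinases 5 were lower and 1 higher, and of 9 E2F and MuvB factors 4 were lower. *E2f2*, an activating E2F, was lowest at -3.06 ± 0.51, with 4.19, 1.93, 3.12 and 4.19 CPM against 20.0, 16.7, 44.5 and 45.8 CPM. Against matched cells, 0 E2F and MuvB factors had enough counts to be tested. Of the nucleotide synthesis genes 3 of 8 were then lower. Of the cyclins and kinases 2 of 8 were, with -1.10 as the lowest value, and none was higher in either list.

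A few genes were higher in cycling fibroblasts. *Cdk4*, the kinase of the D cyclins, was higher at 0.62 ± 0.20 (adjusted p = 0.0393) but not against matched cells (0.35), while *Ccnd1* was lower at -1.94 ± 0.36. *Tubb2b*, a beta-tubulin, had 85.1, 112, 88.8 and 124 CPM against 9.99, 16.7, 11.1 and 34.3 CPM (2.76 ± 0.33). *Stmn1* was lower at -1.0 ± 0.17, so that the list of 10 tubulin and microtubule genes had 4 higher and 2 lower members, and 1 higher and 2 lower of 9 against matched cells. Of 14 growth and nucleolar genes, 4 were higher, among them *Srm* of polyamine synthesis at 1.5, and 1 lower, the transferrin receptor gene *Tfrc* at -2.46, which red cell precursors use to take up iron. Against matched cells, 0 of 12 growth genes were called.

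**Figure D5:**
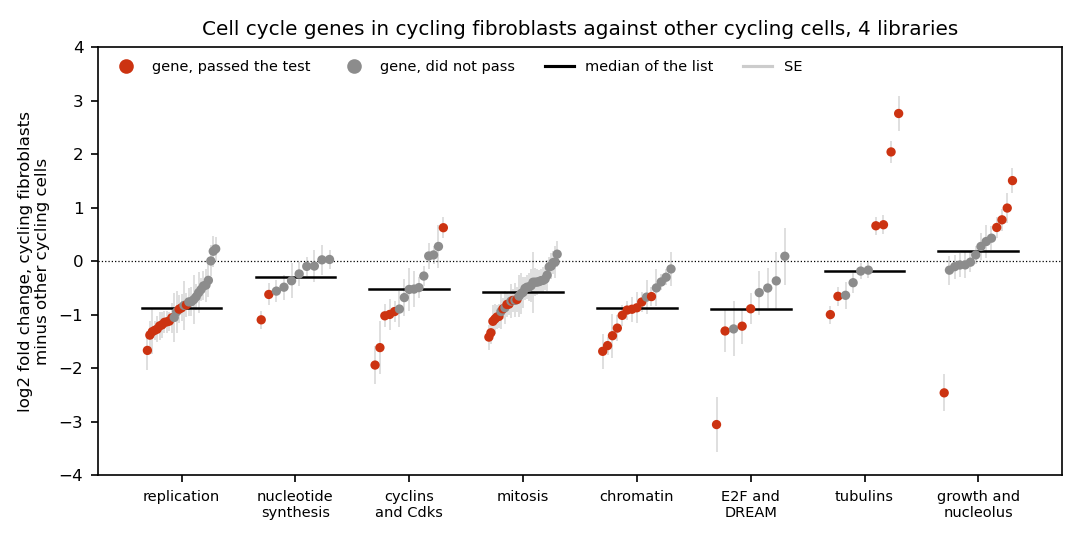
Log2 fold change of each tested gene of 8 lists, cycling fibroblasts minus other cycling cells, in 4 libraries, with SE, ordered by value, red where the test was passed and with the median of each list as a bar. The medians of replication and of chromatin lie at -0.87, that of mitosis at -0.59 and those of the tubulin and growth lists at -0.18 and 0.19.

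The balance of early and late genes did not differ detectably between both kinds of cycling cells. The log2 ratio of replication and nucleotide synthesis UMIs to mitosis UMIs was -0.06 ± 0.33 in cycling fibroblasts and 0.03 ± 0.34 in other cycling cells (SD, n = 4 libraries). The difference of -0.09 ± 0.20 gave p = 0.5 in an exact paired permutation test, whose smallest p is 0.125, with differences between -0.29 and 0.18. Over all 12 libraries the ratio of the cycling fibroblasts lay between 0.03 and 0.16 in rest replicates 1 and 2, peak replicate 2 and resolved replicate 1. It lay between -0.66 and -0.32 in the other 5 libraries with 7 or more cells, and was lowest, at -2.99, in resolved replicate 3 with 2 cells. Against rest, it differed by -0.79 at peak, -0.61 in resolving and -1.02 in resolved libraries, with exact permutation p of 0.4, 0.2 and 0.5 (n = 3 each). Libraries with 1 or 2 cells carried these values. The difference was -0.18 without peak replicate 3, -0.38 without resolving replicate 3 and -0.088 without resolved replicate 3, and 0.19 at peak with at least 10 cells per library, where 1 peak library was left.

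Between labels, no gene of the cycling fibroblasts passed without a block once genes with low counts were filtered out. With no such filter, 5 genes passed in resolving and 1 in resolved libraries. With edgeR, 0 of 5897 genes (0%) were called at peak, resolving or resolved against rest, and 12, 88 and 87 had an unadjusted p under 0.05. Each of these counts is less than a share of 0.05 of the genes tested. DESeq2 also called 0, with 10, 35 and 43 at an unadjusted p under 0.05. With the run of suffixes as a block 1, 4 and 1 genes were called, and with the replicate number as a block 9 were called in resolved libraries. Libraries of one label lay in different runs of suffixes and held between 1 and 179 of these cells, which limits what this comparison can show. Whether the difference between cycling and non-cycling cells changed with the label was tested as an interaction over 10363 genes. Adjusted p was under 0.05 for 0 genes at peak, 1 gene (0.00965%) in resolving and 10 (0.0965%) in resolved libraries. An unadjusted p under 0.05 was found for 192, 314 and 239 genes, each also less than a share of 0.05. Without rest replicate 2 the count for resolved libraries was 24.

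The 10 genes of the resolved interaction, named after their values were seen, were led by cartilage genes, among them *Col2a1*, *Col9a1*, *Col9a2*, *Col9a3*, *Col11a2* and *Lect1*, which encodes chondromodulin. *Col2a1* in cycling cells had 19049 CPM in rest replicate 1, 368 CPM in rest replicate 2 and 724 CPM in rest replicate 3, against 16.0, 14.7 and 0 CPM in resolved replicates 1 to 3. In non-cycling cells it had 3121.5, 236 and 195 CPM at rest against 844, 295 and 207 CPM. The cycling level was thus above the non-cycling level in all 3 rest libraries and below it in all 3 resolved ones. The interaction was -6.84 ± 1.28 on the log2 scale (adjusted p = 0.0212), and without rest replicate 1 it was -6.36 (adjusted p = 0.00441). With RLE size factors in place of TMM its adjusted p was 0.0846 and none of the 10 passed, and without resolved replicate 1 or resolved replicate 3 none passed.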

How the data were processed

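Live CD45- cells of mouse hind limb joints were profiled with the 10x Genomics 3′ version 2 chemistry in 12 libraries. The authors aligned reads to mm10 with CellRanger and deposited UMI counts as whole numbers. Every library had the same median per cell, so the counts appear to have been brought to one depth before deposit, and intervals cover counting error only. The rule, gene lists and tests were chosen with earlier results of these data known.

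Cells with 501 to 4999 detected genes were kept. Counts were summed per library and cell group and then entered two-sided quasi-likelihood tests of edgeR 4.0.16 in R 4.3.3, after TMM scaling and filterByExpr. Contrasts within a library had the library as a block and at least 10 cells per sum, and the 13 genes of the rule were left out. Label and interaction fits used all 12 libraries. The SE was the log2 fold change divided by the square root of F. Shares and balances were compared with exact permutation tests (scipy 1.17.1). Doublet scores came from Scrublet in scanpy 1.11.5. For depth, non-cycling cells were drawn in 10 bins of UMIs, and cells were thinned to 2000 UMIs. Positions are from GENCODE M21 (GRCm38), in which 27645 of 27998 genes were found. All models were tested on simulated data, in which fits between labels and of interactions missed most small changes and held more false calls than the nominal share. At peak, the fit between labels recovered 3.30% of changes of 1 on the log2 scale, and 11.7% of its calls were false. For the interaction fit at peak these values were 1.02% and 20.5%. Of the calls between cycling and non-cycling fibroblasts 7.77% were false, also above the nominal share. The comparison with other cycling cells recovered 27.9% of changes of 1 on the log2 scale, with 4.90% of calls false.

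Named genes were the rule's markers, fixed cell cycle and fibroblast genes, the extremes and most abundant gene of each list, subset markers, and the 10 largest differences each way outside the lists that had one direction in every library. Replicate numbers were checked as pairs by the correlation of deviations over 5897 genes. All 3 pairs passed 0.1 for rest and peak (0.122 to 0.511) but not for resolving (-0.0936 to 0.178) or resolved (-0.183 to 0.0478). Alternatives were other normalizations, filters, marker limits, DESeq2 1.42.0, a replicate block and each library left out. Chosen after seeing the data were the matching of fibroblasts to other cycling cells, the fits by runs of suffixes and other alternatives on depth and cell types.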

Additional observations from a re-analysis of the deposited data

Results flagged for a closer look

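For 11 genes the difference between cycling and non-cycling fibroblasts itself differed between labels, with an interaction at an adjusted p under 0.05 by edgeR's quasi-likelihood test.

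In resolving against rest libraries this was *S100a9*, a gene of neutrophils and monocytes, with an interaction of 6.5 ± 1.15 on the log2 scale (adjusted p = 0.0452). In cycling sums *S100a9* had 7.12 CPM in resolving replicate 1, 2124 CPM in resolving replicate 2 and 0 CPM in resolving replicate 3, against 2.55, 3.6 and 6.54 CPM in rest replicates 1 to 3. A single library thus carried the level. Without resolving replicate 2 the interaction was 2.94 (adjusted p = 0.927), with RLE size factors its adjusted p was 0.181, and without rest replicate 1 it was 0.00111. *S100a9* was not among the 7 immune markers counted above.

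In resolved against rest libraries there were 10 genes, led by cartilage genes. The interactions were -7.98 for *Mia*, -6.94 for *3110079O15Rik*, -6.89 for *Scrg1*, -6.84 for *Col2a1*, -6.79 for *Lect1*, -6.40 for *Col11a2*, -6.26 for *Col9a3*, -6.02 for *Ucma*, -6.02 for *Col9a2* and -5.29 for *Col9a1*. Adjusted p lay between 0.0129 and 0.0400, between 0.0808 and 0.266 with RLE size factors, and between 0.00107 and 0.0256 without rest replicate 1. *Mia*, a protein secreted by chondrocytes, had 1833, 61.1 and 21.8 CPM in the cycling cells of rest replicates 1 to 3 and 0.390, 0.699 and 0 CPM in those of resolved replicates 1 to 3. In non-cycling cells it had 411, 43.6 and 14.0 CPM against 86.1, 24.4 and 44.7 CPM. In cycling cells *Mia* and *Col9a1* were highest in the libraries suffixed 1 to 3, with 733 to 2448 CPM for *Mia* and 1580 to 3437 CPM for *Col9a1*, whatever their label. Resolved replicate 3 held 2 cycling fibroblasts, and the part of chondrocyte RNA in this difference was not tested.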

How the results depend on the processing

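Between cycling and non-cycling fibroblasts, 816 genes were higher and 825 lower against cells matched in UMIs, and 845 and 971 without cells that had 2 markers of another type. Leaving out each library gave 1370 to 1589 higher and 1527 to 1805 lower. Against other cycling cells, 310 were higher and 161 lower when these had at most 1 fibroblast marker, 329 and 285 with fibroblasts matched in UMIs, and 1303 higher with no filter. Leaving out each library gave 482 to 796 higher and 427 to 794 lower, with the lowest counts without rest replicate 2 and 433 lower without resolved replicate 1. With no filter on low counts, resolving and resolved libraries had 5 and 1 genes against rest. With the runs of suffixes as a block there were 1, 4 and 1 genes at peak, resolving and resolved, and without each library 0 to 0.

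With the replicate block there were 0, 0 and 9 genes, and the exact p of the share was 1, 0.25 and 1 under this pairing, with 0.25 as the smallest possible. The block changed no call at peak, where the replicate numbers passed the check as pairs, though they are not stated to pair libraries. Rest and peak lay in the same run of suffixes for replicates 1 and 2, but not for replicate 3.

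Interactions numbered 0, 0 and 0 with RLE size factors, 24, 21 and 55 with no filter and 0, 0 and 6 with at least 10 cells per sum. Leaving out each library gave 0 to 10, 0 to 5 and 0 to 24, with 24 without rest replicate 2. The difference in share between peak and rest was -0.149 points with thinned cells and -0.231 without cells of other types. Without each library it lay between -3.70 and 2.69 for peak, -3.98 and -0.683 for resolving, and -1.45 and 5.35 for resolved. The balance differed by 0.19 at peak with at least 10 cells and by 0.89 in resolving libraries with thinned cells. Without each library it lay between -1.27 and -0.18, -0.81 and -0.38, and -1.66 and -0.09 for the labels, and -0.18 and -0.02 against other cycling cells.

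Against matched cells *Thy1* was at 0.21, *Cxcl5* at -0.091, *Lrrc15* at -0.47, *Aldh1a2* at 0.067 and *Ccl2* at 0.15. Without cells of other types *E2f4* was at -0.26, *Ccl2* at 0.22 and *Ccl20* at -2.58 with a call, and with erythroid markers set aside *Ccnd1* was at -0.11, *Thy1* at 0.0022 and *Ccl2* at 0.18. Without the library block *Thy1* was at 0.031, *Ccl2* at 0.016 and *Col2a1* at 1.92. In suffixes 4 to 6 alone *Thy1* was at 0.11 and *Ccl2* at 0.095, and without rest replicate 1 they were at 0.13 and 0.063. Leaving out each library gave -0.26 to 0.13 for *Thy1*, -0.46 to 0.063 for *Ccl2* and -0.014 (without peak replicate 2) to 0.16 for *Lrrc15*. Against other cells with at most 1 fibroblast marker, *Cdc20* was at 0.15 and *Plk1* at 1.13. These changes of sign were not tested for a cause. Of all values recomputed for the first comparison, 2079 kept direction and side of the threshold, 79 lost and 25 gained a call, 75 counts or values without a test moved and 19 changed sign. For the comparison with other cycling cells, 146 kept both, 23 lost and 1 gained a call, and 2 changed sign. Libraries with 1 or 2 cycling cells limit every comparison between labels.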
